A study of Mus musculus with 6 samples.

Results

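The genes disrupted in this series are Bmal1 and Hsd17b4, and acetylation of histone H3 at lysine 27 (H3K27ac) is described here at these same genes, in each knockout and in the wild type. H3K27ac was measured by ChIP-seq in RAW264.7, a macrophage-like mouse cell line. Bmal1KO cells carry the genotype label Bmal1 knockout, Mfp2KO cells the label Mfp2 knockout, and WT cells the label wild-type, with "Naive" in the name of the library. All cells were grown in DMEM with 5% fetal bovine serum, and the labels name no stimulus, no time and no further allele. For every genotype there was 1 library of the ChIP and 1 of its input. The labels say neither how a gene was disrupted nor whether a knockout is a clone or a pool, so differences are between these libraries. Peaks of these genes were taken by position and not by their values. The genes and windows were chosen with earlier results of these data known. A region below the Bmal1 window was added later, after its values were seen. A peak belonged to a gene when it overlapped, by 1 bp or more, a window of mouse build mm39. The windows were set to extend about 10 kb beyond the gene on each side. However, the RefSeq gene Bmal1 spans 135.7 kb on build GRCm38.p6, more than the 108 kb between the margins of its window. Sequence before the gene start as used here may thus belong to Bmal1. Gene start and gene body are taken below from the windows. The windows were chromosome 7 (112796000-112924000) for Bmal1 (RefSeq symbol Arntl, gene 11865) and chromosome 18 (50251000-50340000) for Hsd17b4 (gene 15488), and both genes start at the lower end. They held 18 of the 79419 peaks in the 3 lists, of which 5 were called in Bmal1KO, 5 in Mfp2KO and 8 in WT.

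BMAL1 pairs with CLOCK to drive the circadian transcription loop, and the loop returns to Bmal1 itself: REV-ERB proteins repress the gene and ROR proteins activate it through shared elements in its promoter. In macrophages the clock is known for setting the strength of inflammatory responses by time of day. Hsd17b4 encodes MFP2, also called D-bifunctional protein, which carries out the hydratase and dehydrogenase steps when peroxisomes shorten very long chain and branched fatty acids. H3K27ac is deposited by the acetyltransferases p300 and CBP and marks active promoters and enhancers. It reports on the chromatin of a gene and not on the protein, so a small edit that destroys the protein need not change it. Acetylation therefore does not check the knockout labels here.

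The proximal promoter of Bmal1 is shown because the peak with most tags in the window, in each genotype, lies at the start of the gene. It is taken from RefSeq (symbol Arntl), build GRCm38.p6, chr7:113207261-113207560, plus strand, from 250 bases before the transcription start to 50 bases after it. RefSeq lists 2 such starts for the gene, 46 bases apart, and the higher one is shown. Since no position was converted between builds, the printed run was not placed under the peak by its coordinates. Capitals mark the matches to AAAGTAGGTNA, the form taken here by the ROR and REV-ERB response element, which is a nuclear receptor half-site with the bases before it.
Bmal1 promoter: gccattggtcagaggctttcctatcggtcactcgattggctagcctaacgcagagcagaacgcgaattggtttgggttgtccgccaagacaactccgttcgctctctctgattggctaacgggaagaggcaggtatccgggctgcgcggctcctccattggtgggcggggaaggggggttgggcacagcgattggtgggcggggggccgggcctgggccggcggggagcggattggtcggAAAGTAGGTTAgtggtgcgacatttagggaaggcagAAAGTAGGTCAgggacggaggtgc
The element stands at bases 241 to 251 and again at bases 277 to 287 of the printed run, both on the plus strand. The pattern was made after the sequence had been read, from the half-site with the 5 bases before it and the other stretch that differs at 1 base. It was searched on both strands in all 32851 promoters of the same length in the table. Of these, 20 promoters (0.0609%) held it at least once, and 1, the printed entry of Bmal1, held it 2 times. The 2 matches in Bmal1 were fixed by how the pattern was made. The 0.0609% is the share with these letters, not with any ROR and REV-ERB response element. The copy at base 277 contains the nuclear receptor half-site AGGTCA, which 16.3% of promoters hold. CCAAT, on either strand, occurred 7 times in the Bmal1 promoter and at least once in 37.4% of promoters, and 4 promoters (0.0122%) held it 7 times or more. The 32851 promoters are of 27025 genes, so a gene can count more than 1 time. The other Bmal1 entry, 46 bases lower, shares the element at base 241 and all 7 CCAAT matches. Bmal1 therefore counts more than 1 time among the 20 promoters and among the 4. GGGCGG, the GC box, occurred 2 times here and at least 2 times in 19.5% of promoters. CACGTG, the canonical E-box to which BMAL1 and CLOCK bind, had no match in this window and was present in 7.15% of promoters. A match is a description of letters and not of binding.

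The acetylated start of Bmal1 carried about the same number of tags in all 3 genotypes, the Bmal1 knockout included. Positions below are of build mm39, and a tag count is scaled by the authors to 10 M tags per library. The point 10 kb inside the lower edge of the window, called the gene-start point here, lay inside 1 peak of each list. In Bmal1KO this peak (112805472-112808005) had 252 normalized tags, with a 95% exact Poisson interval of 225 to 281. In Mfp2KO (112805630-112808115) it had 259 tags (234 to 285), and in WT (112805448-112808816) it had 238 tags (214 to 263). The intervals, which cover counting error only, overlap in every pair. In such a bulk assay, acetylation in fewer cells or on fewer alleles cannot be told apart from less acetylation in each.

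Bmal1KO had 1.06 times the WT tags at this peak (95% counting interval 0.913 to 1.23), and Mfp2KO had 1.09 times the WT tags (0.945 to 1.25). With 1 library per genotype no difference between genotypes was tested, and both ratios use the same WT library. Across all regions called in both lists, after overlapping peaks of the 3 lists were merged, the median ratio of tags was 0.843 for Bmal1KO over WT in 17614 regions and 1.35 for Mfp2KO over WT in 16682 regions. The Bmal1 start was above 63.9% of these regions in Bmal1KO and above 40.8% in Mfp2KO. Relative to the median region, Bmal1KO was thus higher by 0.33 on the log2 scale, and Mfp2KO differed by -0.31. A further comparison, set after the data were seen, took regions with 0.5 to 2 times the WT tags of this peak. Their median ratio was 1.01 in Bmal1KO, and 53.4% had a lower ratio, so the Bmal1KO value was near the middle of these regions. In Mfp2KO their median was 1.49, and 33.8% had a lower ratio. As a share of all tags in peaks, the start of Bmal1 in Mfp2KO had 0.737 times the WT value, which turns the direction of that ratio. The Mfp2KO library had 57.15% of its tags in peaks, against 37.35% in Bmal1KO and 38.71% in WT, and the part of this difference in the ratios was not tested.

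A similar number of tags was counted over a shorter called length in the knockouts. Tags beyond the called ends of a peak are not in these counts. The start peak of Bmal1 was 2533 bp long in Bmal1KO and 2485 bp in Mfp2KO, against 3368 bp in WT, and most of the difference lay at the end toward the gene body. Density was 99.5 tags per kb in Bmal1KO and 104 in Mfp2KO, against 70.6 in WT. The knockout peaks were thus denser than the WT peak by 1.41 and 1.47 times. The median shared region was 1.03 times denser in Bmal1KO and 1.57 times denser in Mfp2KO than in WT. Input per kb at the Bmal1 start peak was also higher, at 1.52 times WT in Bmal1KO and 1.68 times WT in Mfp2KO. What part this has in the density of the ChIP was not tested. By tags the peak exceeded 79.5% of the Bmal1KO list, 69.5% of the Mfp2KO list and 81.7% of the WT list.

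**Figure D1:**
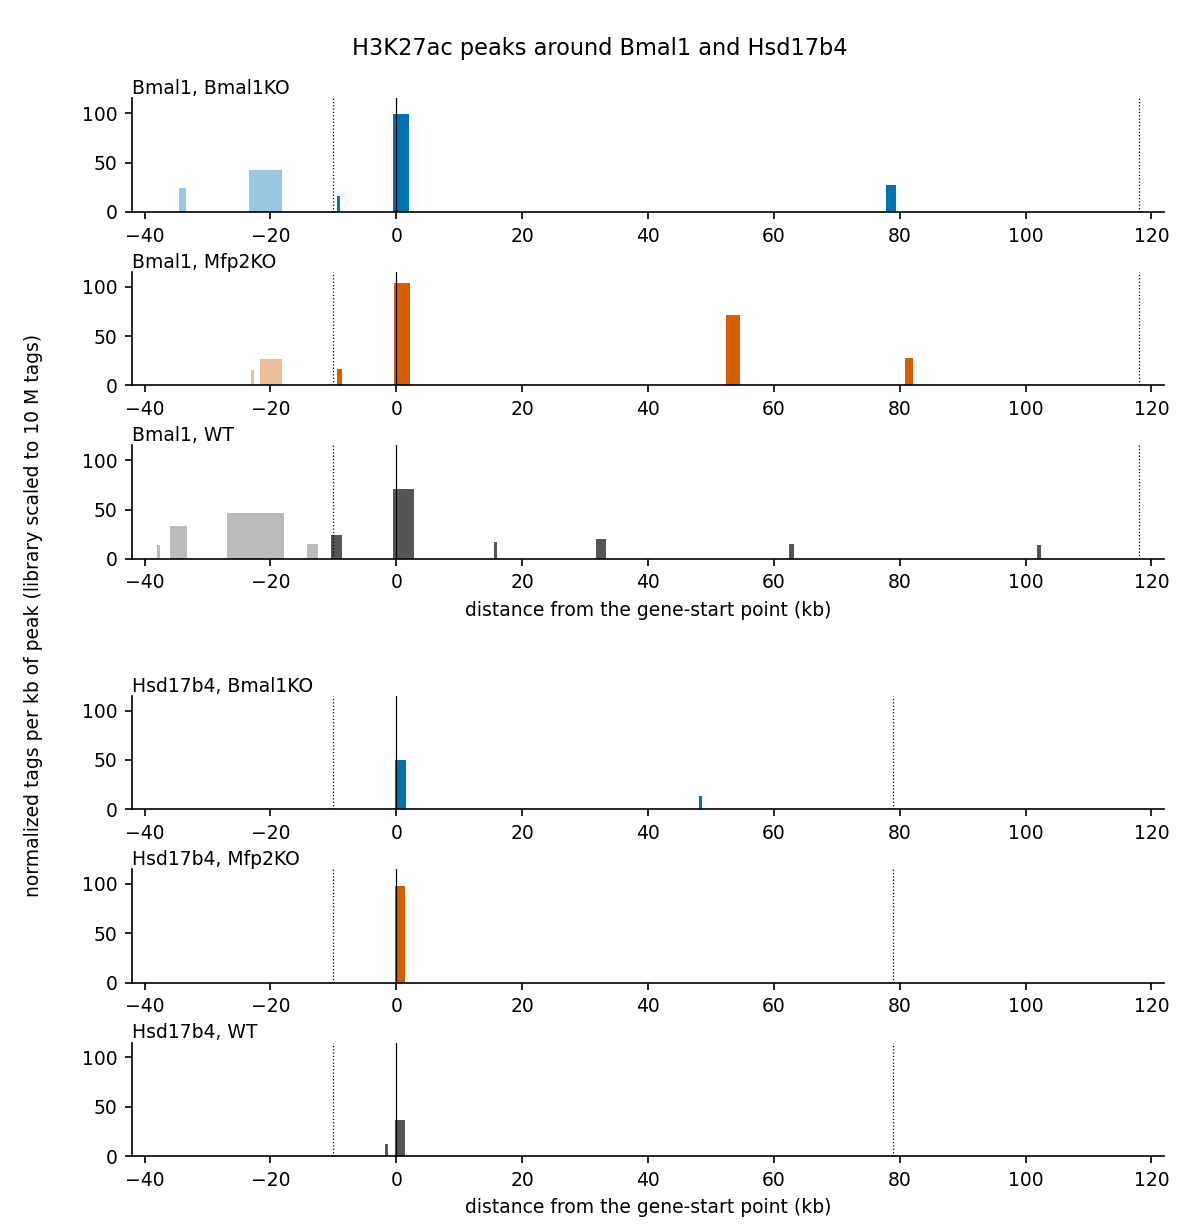
H3K27ac peaks along Bmal1 (upper 3 rows) and Hsd17b4 (lower 3 rows) in Bmal1KO, Mfp2KO and WT, with distance from the gene-start point in kb on the x axis and normalized tags per kb of each peak on the y axis; bar width is the called length. Solid lines mark the gene-start point, dotted lines the window, and lighter bars are peaks outside the Bmal1 window; the peak at the gene start stands in every row, while bars inside the genes do not line up between rows.

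A smaller peak about 9 kb before the gene-start point of Bmal1 was called in all 3 lists and was lower in both knockouts. Whether it lies before or inside the longer RefSeq gene was not determined. It had 7.98 tags over 500 bp in Bmal1KO (112796542-112797042) and 15.5 tags over 932 bp in Mfp2KO (112796510-112797442), against 42.7 tags over 1780 bp in WT (112795608-112797388). The Bmal1KO peak and 878 bp of the Mfp2KO peak lie inside the WT peak, of which 392 bp extend below the window. Bmal1KO had 0.187 times the WT tags (0.0962 to 0.363) and Mfp2KO had 0.363 times (0.229 to 0.577). These ratios follow the called length in part, for by density the peak was at 16.0 tags per kb in Bmal1KO and 16.6 in Mfp2KO, against 24.0 in WT, or 0.665 and 0.693 times WT. The Bmal1KO count is close to the authors' minimum for a window, 9 tags before scaling, or 7.18 after it. Of the 3 shared regions of both genes, this 1 was lower by 2-fold or more in Bmal1KO, as were 21.9% of all shared regions. In Mfp2KO it was again this 1 of 3, and 18.5% of all shared regions were lower by 2-fold or more. By tags per kb it was lower by less than 2-fold in both knockouts, and 1% of shared regions were lower by 2-fold or more in Bmal1KO and 1.49% in Mfp2KO. By tags 2.75% of shared regions had a lower ratio in Bmal1KO, and 12.4% had a lower ratio in Mfp2KO. Among regions with 0.5 to 2 times the WT tags of this peak, a limit set after the data were seen, these shares were 5.27% and 23.2%.

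Within the body of Bmal1 no peak was shared by any pair of genotypes. WT had 4 peaks there, all weak, with 8.55, 30.4, 11.7 and 8.86 tags in order along the gene. Bmal1KO had 1, with 44.7 tags over 1642 bp (112883760-112885402). Mfp2KO had 2, with 156 tags over 2204 bp (112858370-112860574) and 35.5 tags over 1278 bp (112886844-112888122). The Bmal1KO peak and the weaker Mfp2KO peak lay 1442 bp apart, and no other peaks of the gene body in different genotypes came as close.

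That 4 of 6 WT peaks of Bmal1 had no counterpart in either knockout is to be read against 31.1% of all WT peaks, and against the low tags of these 4. Among WT peaks of the same decile of the list by tags, 78.3% had no counterpart in either knockout for the peaks with 8.55 and 8.86 tags, 63.7% for the one with 11.7 tags and 25.5% for the one with 30.4 tags. In Bmal1KO 1 of 3 peaks was in no other list, where 19.6% of all Bmal1KO peaks were. In Mfp2KO 2 of 4 were, where 21.7% of all Mfp2KO peaks were.

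The peak of Mfp2KO with 156 tags differs from these weak ones. It lay 53.5 kb past the gene-start point and had 71.0 tags per kb, where the WT peak at the gene start had 70.6. Within their own lists these densities differ in rank, above 61.7% of Mfp2KO peaks and above 82.7% of WT peaks. The Mfp2KO peak had 5.73-fold enrichment over input, above 26.3% of its list. Its input was 12.4 tags per kb, against a median of 5.61 in the Mfp2KO list. Of Mfp2KO peaks in its decile by tags, 2.08% were in no other list. By tags it stood at place 139 of the 6221 Mfp2KO peaks without a WT peak and at place 40 of the 5303 in no other list. The nearest WT peak was 7857 bp away and the nearest Bmal1KO peak 23186 bp away. The Bmal1KO peak with 44.7 tags had 4.61-fold enrichment, near the authors' limit of 4-fold, and 2.96% of Bmal1KO peaks in its decile were in no other list. RefSeq places the long noncoding RNA Gm33721 within the Bmal1 gene and the protein-coding gene Btbd10 within 10 kb of it. Which of these an internal peak lies in was not determined, because the gene table is of another build.

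Summed over its window, Bmal1 had 305 tags in Bmal1KO (275 to 337) and 466 in Mfp2KO (433 to 501), against 340 in WT (312 to 370). Called length was 4675 bp in Bmal1KO and 6899 bp in Mfp2KO, against 8594 bp in WT. The start peak held 82.7% of these tags in Bmal1KO and 55.5% in Mfp2KO, against 69.9% in WT. The ratio of summed tags to WT was 0.896 in Bmal1KO (0.786 to 1.02) and 1.37 in Mfp2KO (1.23 to 1.53). The Mfp2KO sum includes the gene-body peak of 156 tags that was in no other list. The Mfp2KO ratio turned with the window and the scaling: widened by a further 10 kb on each side it was 0.707, and as a share of tags in peaks it was 0.929.

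At Hsd17b4 nearly all tags in called peaks were at the gene start, and scaled tags there were highest in the cells labelled Mfp2 knockout. Enrichment over input there was instead highest in Bmal1KO, at 7.67-fold, against 6.60-fold in Mfp2KO and 6.28-fold in WT. The start peak had 86.2 tags in Bmal1KO (50260742-50262475; interval 70.7 to 104) and 162 tags in Mfp2KO (50260733-50262382; 143 to 183), against 59.2 tags in WT (50260722-50262322; 47.8 to 72.5). The Mfp2KO interval overlaps neither of the others, and the Bmal1KO and WT intervals overlap between 70.7 and 72.5 tags. In length the 3 peaks were alike, at 1733 bp in Bmal1KO, 1649 bp in Mfp2KO and 1600 bp in WT. Density was 49.7 tags per kb in Bmal1KO and 98.4 in Mfp2KO, against 37.0 in WT.

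Mfp2KO had 2.74 times the WT tags at the start of Hsd17b4 (2.16 to 3.47), or 1.45 on the log2 scale. Of the 3 shared regions of both genes, this 1 was higher by 2-fold or more in Mfp2KO, as were 31.1% of all shared regions. Of the shared regions, 81.9% had a lower ratio. Relative to the median region the difference was 1.02 on the log2 scale, and as a share of tags in peaks the ratio to WT was 1.86. Bmal1KO had 1.46 times the WT tags (1.10 to 1.92), above 82.4% of shared regions. None of the 3 shared regions was higher by 2-fold or more in Bmal1KO, where 5.49% of all shared regions were. Set directly against each other, Mfp2KO had 1.88 times the Bmal1KO tags (1.5 to 2.36), with a median of 1.40 over 15600 shared regions and a lower ratio in 69.4% of them. Among regions with 0.5 to 2 times the WT tags of the Hsd17b4 start, 89.7% had a lower ratio in Bmal1KO and 77.0% in Mfp2KO.

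**Figure D2:**
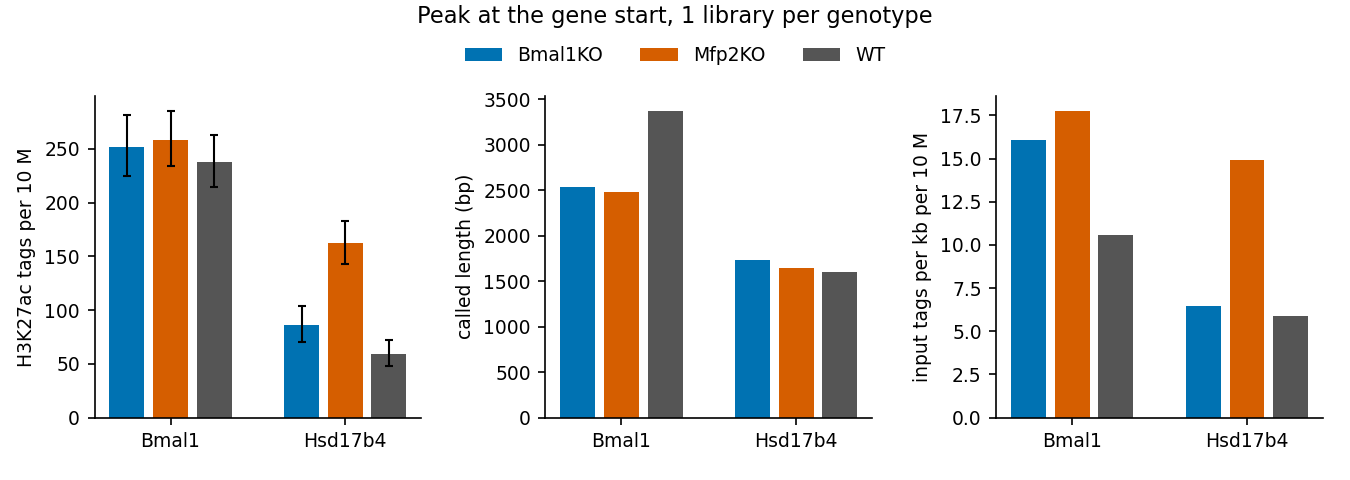
The peak at the gene start of Bmal1 and Hsd17b4 in Bmal1KO, Mfp2KO and WT, with bars for the normalized H3K27ac tags (left; lines are 95% exact Poisson intervals), the called length in bp (middle) and the input tags per kb (right). The Bmal1 bars of the left panel lie between 238 and 259 tags, and at Hsd17b4 Mfp2KO is highest in tags and in input.

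Away from the gene start, the Hsd17b4 window held only a minimal peak in 2 of the lists. Bmal1KO had 6.78 tags over 500 bp (50309029-50309529), 48.3 kb past the gene-start point. WT had 6.33 tags over 500 bp (50259182-50259682), ending 1060 bp before the start peak of Bmal1KO and 1051 bp before that of Mfp2KO. Mfp2KO had none, so its start peak was all of the 162 tags in the window. Window sums were 93.0 tags in Bmal1KO and 162 in Mfp2KO, against 65.5 in WT. Of WT peaks in the lowest decile by tags, 88.3% were in no other list, and of Bmal1KO peaks in the lowest decile, 61.2%. RefSeq places the pseudogene Cd63-ps and the long noncoding RNA Gm33376 within Hsd17b4. Beyond the window the surroundings were sparse on 1 side: the next peak above it was 2258 kb away in Bmal1KO and in Mfp2KO, and 2257 kb away in WT.

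At Hsd17b4 input was also highest in Mfp2KO. Input there was 6.49 tags per kb in Bmal1KO and 14.9 in Mfp2KO, against 5.89 in WT, on a scale of 10 M input tags. In Mfp2KO 31.5 input tags were counted and in WT 14, and the ratio of scaled input was 2.61 with a wide counting interval (1.39 to 4.90). Over 14675 shared regions with at least 3 input tags in both libraries, the median of this ratio was 1.24, and 94.9% had a lower one. Per kb the ratio was 2.53 at Hsd17b4, with a median of 1.43 and a lower ratio in 92.6% of regions. Enrichment over input at the start of Hsd17b4, as deposited by the authors, was 7.67-fold in Bmal1KO and 6.60-fold in Mfp2KO, against 6.28-fold in WT. Mfp2KO was thus highest in tags but not in enrichment. After input was subtracted, the ratio of tags in Mfp2KO over WT was 2.76, against 2.74 before. Input is a small part of the tags in peaks so enriched. Subtraction could therefore move this ratio only slightly, and it does not correct for a difference in input that scales with the tags. What part the input has in the tags was not tested.

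At the start of Bmal1, input was 16.1 tags per kb in Bmal1KO and 17.7 in Mfp2KO, against 10.6 in WT. The scaled input of the peak was 1.14 times WT in Bmal1KO (0.779 to 1.67) and 1.24 times WT in Mfp2KO (0.850 to 1.80). Per kb the ratio was 1.52 in Bmal1KO, with a median of 1.01 and a lower ratio in 88.7% of shared regions. In Mfp2KO it was 1.68, with a median of 1.43 and a lower ratio in 64.7%. The deposited enrichment was 6.19-fold in Bmal1KO and 5.87-fold in Mfp2KO, against 6.67-fold in WT. No loss of input was seen at the start of either gene in its own knockout, where about 52.5 input tags stand behind the Bmal1KO value at Bmal1 and 31.5 behind the Mfp2KO value at Hsd17b4. This concerns the called peaks alone, since input outside peaks was not analysed here, and a deletion elsewhere in a gene, or a small edit, would not show.

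**Figure D3:**
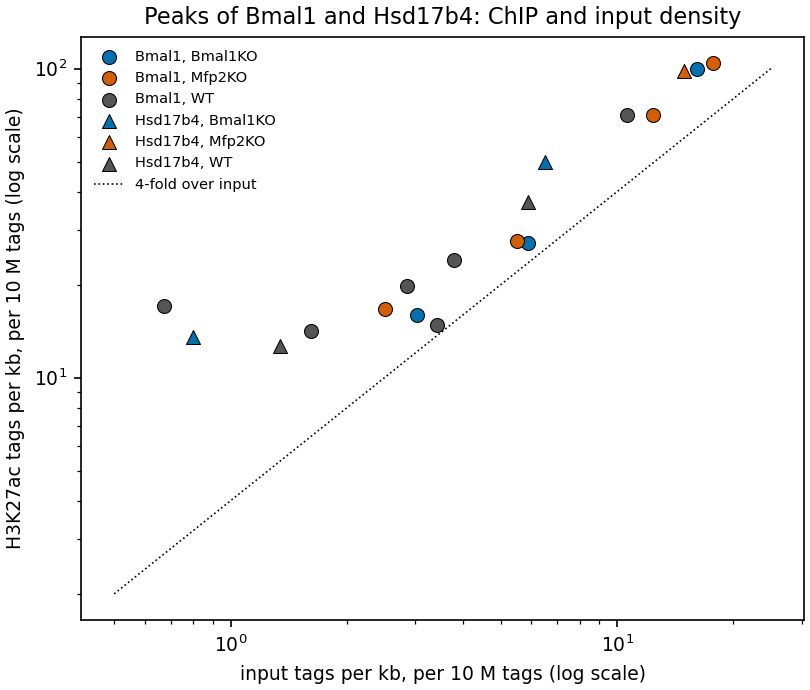
H3K27ac tags per kb (y, log scale) against input tags per kb (x, log scale) for the 18 peaks of Bmal1 (circles) and Hsd17b4 (triangles), coloured by genotype, both per 10 M tags; the dotted line is 4-fold over input. The densest peaks, with 70.6 to 104 tags per kb, also have the most input, 10.6 to 17.7 tags per kb, and lie 5.73-fold to 6.67-fold over input.

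**Figure D4:**
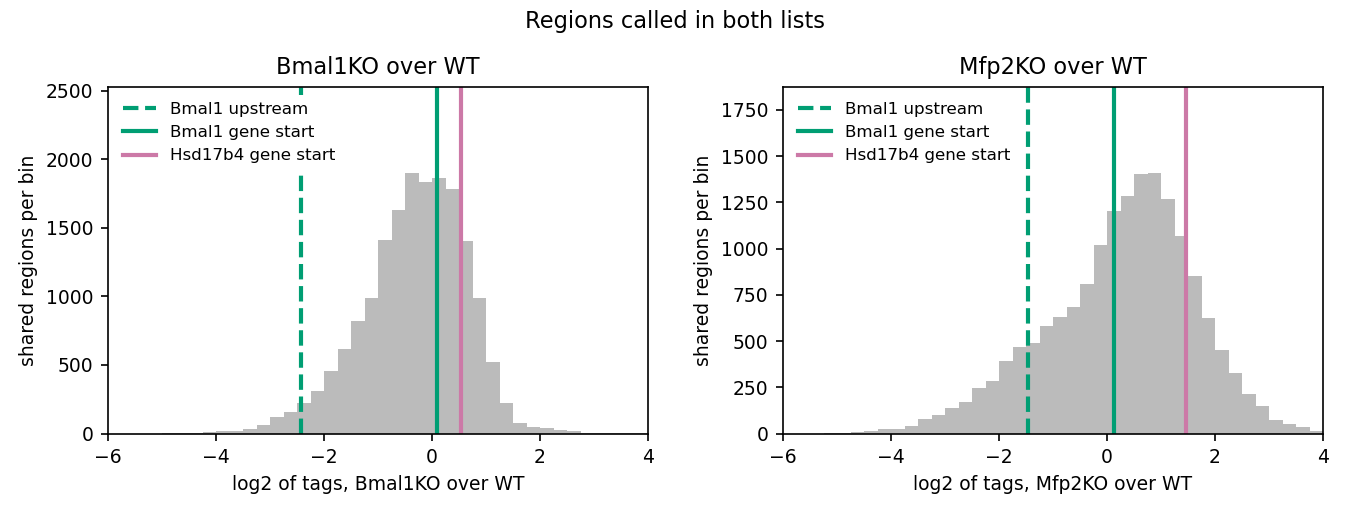
Histogram of the log2 ratio of tags to WT over regions called in both lists, for Bmal1KO (left) and Mfp2KO (right), in bins of 0.25 and drawn from -6 to 4; vertical lines are the 3 shared regions of Bmal1 and Hsd17b4. The Bmal1 gene start lies in the body of both histograms (0.08 and 0.12), the Bmal1 upstream region toward the low end (-2.42 and -1.46) and the Hsd17b4 gene start on the high side (0.54 and 1.45).

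Over both genes, 3 of 12 merged regions were called in all lists and 9 in 1 list. Of all 39754 merged regions of the series, 14789 were in all lists, 5529 in 2 lists and 19436 (48.9%) in 1 list. The regions in all lists were the gene start of Bmal1, its upstream region and the gene start of Hsd17b4. Of the 18 peaks, 6 did not reach 6-fold over input, where 31.9% of all peaks in Bmal1KO, 29.0% in Mfp2KO and 34.9% in WT did not. They included the Mfp2KO peaks at the start and in the body of Bmal1. By the rule for likeness, the distance in both log2 ratios to WT and in log2 WT tags over 14788 other regions called in all lists, the region closest to the Bmal1 start lay on chromosome 10 (127510660-127514582). It had 248 normalized tags in Bmal1KO and 267 in Mfp2KO, against 232 in WT. The closest to the Hsd17b4 start lay on chromosome 11 (29196341-29198177). Its normalized tags were 90.9 in Bmal1KO and 168 in Mfp2KO, against 61.4 in WT. These likenesses are of the values in 3 libraries and say nothing of shared function.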

How the data were processed

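Peak lists of 3 ChIP libraries were used, 1 per genotype. Peaks were called by the authors in HOMER (findPeaks, histone style), each ChIP against the matching input, per the file headers, with windows of 500 bp, at least 4-fold enrichment and a Poisson p-value of 1.00e-04 over input. HOMER 5.1 and build mm39 are named in the submitters' processing notes. Normalized tag counts are the deposited signal, on a scale of 10 M tags per library. ChIP and input tags are deposited signals, 1 of each pair scaled to the depth of the other library, per the file headers. The deposited fold is a ratio, ChIP over input after depth scaling; the findPeaks score is specific to the authors' caller, and region size is the deposited length in bp. Score and p-value support nothing here. Depth was 12.5 M ChIP tags in Bmal1KO, 15.8 M in Mfp2KO and 15.8 M in WT, per the file headers. Input depth, derived from the scaling, was 12.9 M in Bmal1KO, 12.8 M in Mfp2KO and 14.9 M in WT. The minimum per window was 9, 10 and 10 tags in these genotypes, so the same acetylation can be called in 1 list and missed in another, and a missing peak is not absence of the mark.

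Peaks were taken by overlap with the windows, and peaks of all lists that overlapped were merged into regions. Tags of a region or window are sums over its peaks. Tags were turned back to counts with the library depth, and given 95% exact Poisson intervals or log2 ratio intervals from both counts. These cover counting error only. The merging and ratios were tested on simulated lists made from the WT peaks at unchanged positions. Lists that differ in peak ends, or in the splitting of a peak, were thus not tested. Analyses used Python 3.11.15, pandas 2.3.3 and scipy 1.17.1. The gene table and promoters are RefSeq on GRCm38.p6, which is not the build of the peaks: no positions were converted, and no peak outside the windows was assigned to a gene. Lists of clock, peroxisomal and macrophage marker genes, intended for an annotation of build mm39, were therefore not analysed here, and the labelled cell type was not checked. The genes, windows and lists were chosen with earlier results of these data known. Only Bmal1, Hsd17b4 and genes next to them were to be named, with the 3 regions most like each gene start. No replicates exist, so no test between genotypes was made and no paired fit was possible. Alternatives were the window, the overlap, the threshold, the scaling, input subtraction and joining of near peaks.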

Additional observations from a re-analysis of the deposited data

How the results depend on the processing

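Of 119 recomputed values, 93 stayed within their counting interval or within 1.5 times, 22 moved and 4 turned a ratio whose interval had not held a log2 of 0. The 93 include settings that left every value exactly as it was. Joining peaks within 1 kb changed no count, and asking for 0.5 of a peak inside the window removed no peak. Rows of those settings say little of how firm the results are. The 4 turned ratios concern summed tags of the Bmal1 window in Mfp2KO over WT (log2 0.46). They were -0.50 with the window widened by 10 kb on each side, -4.40 at 6-fold over input, -0.11 as a share of tags in peaks and -0.65 with the window widened by 30 kb at its lower end, a choice made after seeing the data. At 6-fold the Mfp2KO peak at the gene start, at 5.87-fold, is itself removed, which leaves no ratio for it. The Bmal1KO sum (log2 -0.16) was -0.58, -0.38 and -0.68 with the wider window, at 6-fold and with the lower extension. In Bmal1KO and Mfp2KO 1 peak of Bmal1 each remained at 6-fold, and the lower extension gave 5 peaks in Bmal1KO and 10 in WT. As a share of tags in peaks, Mfp2KO over WT was -0.44 at the Bmal1 start, also a change of sign from 0.12, and was 0.89 at the Hsd17b4 start and 0.75 over the Hsd17b4 window. Narrowing the window by 10 kb left 1 WT peak at Hsd17b4. Shared regions lower by 2-fold were 1% in Bmal1KO and 1.49% in Mfp2KO by tags per kb. At 1.5-fold 16.1% were higher and 35.5% lower in Bmal1KO. No paired analysis was possible because each genotype has 1 library. Depth limits the peaks under about 10 tags, whose intervals span 3-fold or more.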

Other observations

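The peak with most summed tags near Bmal1 in WT lay outside the window, below its lower edge, and had fewer tags in both knockouts. It was looked at after the data were seen, because the longest RefSeq model of the gene (135.7 kb on GRCm38.p6) exceeds the 108 kb between the margins of the window, so this sequence may belong to the gene or lie before it. WT had a single peak of 9058 bp there (112779044-112788102, build mm39) with 421 tags, more than at the gene start, though its density, 46.5 tags per kb, was below the 70.6 of the gene start. In Bmal1KO there was a peak of 5206 bp (112782619-112787825) with 221 tags. In Mfp2KO there were 2 peaks, of 3388 and 500 bp, with 97.6 tags in all. The ratio of tags to WT was 0.524 for Bmal1KO, between 0.455 and 0.603 by 95% counting error, and 0.232 for Mfp2KO, between 0.195 and 0.276. Of all shared regions 23.8% had a lower ratio in Bmal1KO and 5.99% in Mfp2KO. By density Bmal1KO was at 0.911 times WT, with a median of 1.03 and 36.9% of regions lower, so its lower tags go mostly with a shorter called length. Mfp2KO was at 0.540 times WT in density, with a median of 1.57 and 2.65% of regions lower. This region was singled out after its values were seen.

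Over the 30 kb below the window, the called peaks numbered 2 in Bmal1KO (248 tags, 6320 bp) and 2 in Mfp2KO (97.6 tags, 3888 bp), against 4 peaks with 545 tags over 14049 bp in WT. Bmal1KO also had 27.1 tags at a peak 23.3 kb below the window (112771544-112772658), against 90.5 tags in WT (112770067-112772800), and Mfp2KO had none there. Input over these peaks was 3.56 tags per kb in Bmal1KO and 2.91 in Mfp2KO, against 4.12 in WT.

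The other regions most like the Bmal1 start lay on chromosome 9 (36706979-36709791), at 262 normalized tags in Bmal1KO and 281 in Mfp2KO, against 244 in WT, and on chromosome 12 (70870938-70873403), at 230 in Bmal1KO and 245 in Mfp2KO, against 225 in WT. For the Hsd17b4 start they lay on chromosome 2 (131751006-131752884), at 77.4 normalized tags in Bmal1KO and 157 in Mfp2KO, against 58.3 in WT, and on chromosome 18 (38102067-38103912), at 81.4 in Bmal1KO and 142 in Mfp2KO, against 56.0 in WT.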
